A study of Homo sapiens with 20 samples.

Results

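Levels of 6 genes of the G2 checkpoint, SFN, GADD45A, GADD45B, GADD45G, PLK2 and PLK3, were followed in human mammary epithelial cells in which p53 was switched on at a lower or a higher level. The 6 genes were found by symbol in the platform's probe-to-gene table, each had 1 transcript cluster (the probes of 1 transcription unit) with a single symbol, and they are 6 of 18417 genes measured that way. Their transcript clusters are 7899265 (SFN), 7902227 (GADD45A), 8024485 (GADD45B), 8156309 (GADD45G), 8112202 (PLK2) and 7901054 (PLK3). B5/589 is an immortalized human mammary epithelial line, and the cells of all 5 groups carried the inducible p53 transgene. Cells without doxycycline were collected at 24 h (0 ng), and cells given 3 ng or 5 ng of doxycycline, the drug that switches the transgene on, were collected at 12 h and at 24 h. The labels give doses in ng without a volume, list no uninduced cells at 12 h, and name no clone and no culture for each array. There were 4 arrays in each group and 20 in all, and p-values measure the spread between these arrays, which may be technical. The series asks whether low and high p53 levels switch on the same arrest and death genes.

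The SFN product, 14-3-3 sigma, is an epithelial member of the 14-3-3 proteins and holds the mitotic kinase complex of CDK1 and cyclin B in the cytoplasm. GADD45 proteins are small acidic stress proteins that bind CDK1, PCNA and the kinase MAP3K4, through which they feed p38 and JNK signalling. PLK2 and PLK3 are polo-like kinases induced by stress and mitogens, unlike PLK1, which drives mitosis, and PLK4, which duplicates centrioles. SFN, GADD45A, PLK2 and PLK3 are textbook p53 targets, while GADD45B and GADD45G are better known as targets of cytokine and NF-kB signals.

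Values are log2 signals as the authors deposited them, and a difference of 1 is a doubling. Array medians ran from 4.54 to 5.54, with means of 5.07 for 0 ng at 24 h, 5.15 for 3 ng at 12 h, 4.85 for 3 ng at 24 h, 4.96 for 5 ng at 12 h and 4.80 for 5 ng at 24 h. The median of all genes accordingly shifted by -0.24 at 5 ng against 0 ng at 24 h and by -0.235 at 3 ng, and by 0.07 and 0.08 after quantile normalization between arrays. The differences of the 6 genes are therefore given on both scales, and values of other genes are as deposited unless stated. A gene was called when limma's Benjamini-Hochberg adjusted p over all genes was under 0.05. The 6 measured epithelial markers were bright in every group, with array means of 11.3 to 11.8. Fibroblast, endothelial and immune lists averaged 2.63 to 5.08, with PTPRC, the marker of all white blood cells, at -0.34 in uninduced cells and LUM, a fibroblast matrix gene, at -0.765. The brightest of these lists in uninduced cells were CD68, a lysosomal gene of macrophages, at 8.81 and COL1A1, a collagen gene, at 6.34. In bulk RNA, fewer cells of a type and less RNA per cell cannot be told apart. At 5 ng against 0 ng at 24 h as deposited, none of 7 fibroblast markers was called, 1 of 5 endothelial markers fell (KDR), and of 5 immune markers 1 rose (ITGAM) and 1 fell (CD14). The KDR call (-0.59) ended in 5 of the 20 refits without 1 array. After quantile normalization none of the 7 fibroblast markers was called, 1 of 5 endothelial markers rose (VWF, by 0.41) and 0 fell, and of 5 immune markers 2 rose (ITGAM and CD68, CD68 by 0.32) and 1 fell (CD14). The VWF call ended in 4 of those refits, and the part of these markers in the results below was not tested. In this comparison 28.1% of all genes were called as deposited and 37.8% after normalization. The comparisons of the induced groups with uninduced cells share the 4 uninduced arrays.

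**Figure D1:**
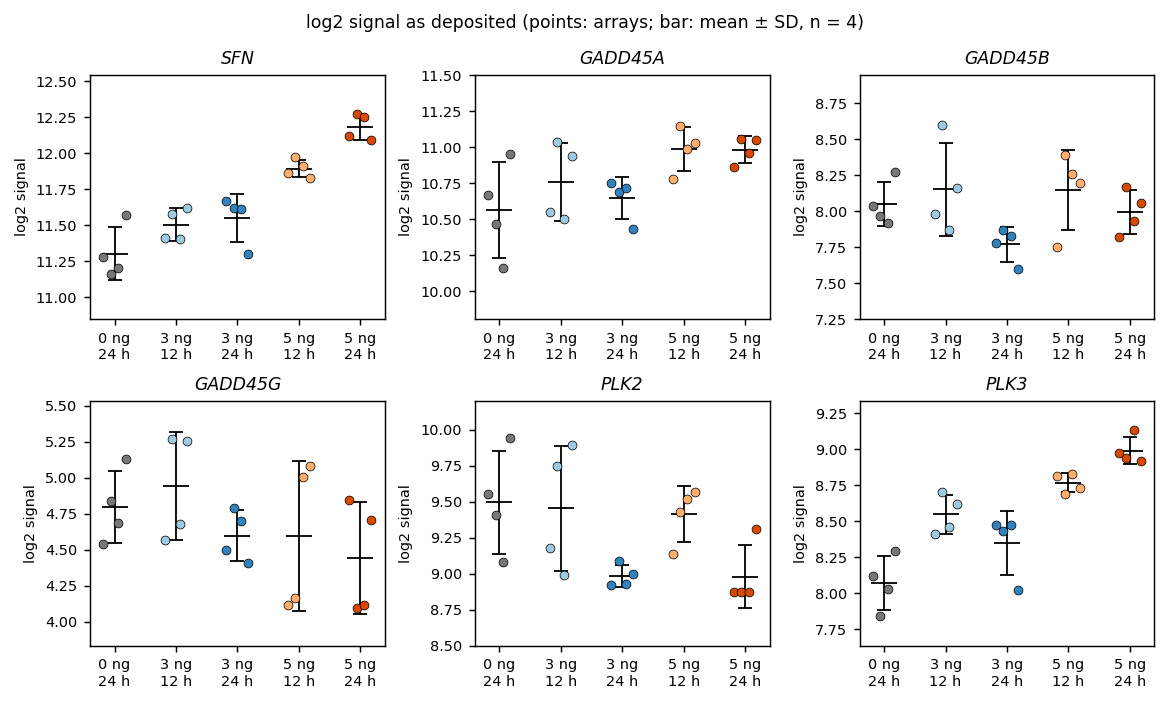
Log2 signal as deposited (vertical axes, each spanning the same range of log2 units) for the 6 genes in the 5 groups (horizontal axes, dose and time of doxycycline). Points are arrays and bars are mean ± SD of 4 arrays. SFN and PLK3 are highest in the 5 ng groups, and the groups of GADD45G overlap throughout.

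SFN rose at the higher dose and PLK3 rose with it, on both scales and at both times. SFN was 1.84-fold higher at 5 ng than at 0 ng after 24 h, and PLK3 1.89-fold. As deposited neither GADD45A nor GADD45B was called at 5 ng and 24 h, after quantile normalization both were, and with each array centred on its median GADD45A was (0.69 ± 0.15, SE, limma adjusted p = 0.0014) and GADD45B was not. GADD45G and PLK2 were not called against uninduced cells on either scale. Without the dimmest 30% of genes, or with limma's trend and robust options, GADD45A (0.42) and PLK2 (-0.515) were also called as deposited. As deposited, 2 of the 6 genes rose at 5 ng against 0 ng at 24 h, where 4.52% of all genes rose and 28.1% were called in either direction. After quantile normalization 4 of the 6 rose, where 20.6% of all genes rose and 37.8% were called. At 3 ng against 0 ng at 24 h none of the 6 was called as deposited by limma (24.5% of all genes were called and 1.5% rose), where PLK2 alone had an unadjusted p under 0.05 (0.0181), and 3 rose after quantile normalization (15.4% of all genes rose). At 5 ng the median of the 6 was 0.18 as deposited, against -0.24 for all genes, and 0.52 after quantile normalization, against 0.07 for all genes.

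Sequence upstream of the start sites is shown for SFN and PLK3, which moved together, and for PLK2, the stress polo kinase that did not move with them. Each is the 250 bases before the RefSeq start on GRCh38.p14, read 5′ to 3′ on the gene's strand. Capitals mark matches on either strand to the p53 decamer (a single arm of the p53 response element), GGGCGG (GC box), the CCAAT box, TATAA (TATA box), TGACG (the core of the cyclic AMP response element) or the serum response element.
SFN, chr1:26862899-26863148, plus strand: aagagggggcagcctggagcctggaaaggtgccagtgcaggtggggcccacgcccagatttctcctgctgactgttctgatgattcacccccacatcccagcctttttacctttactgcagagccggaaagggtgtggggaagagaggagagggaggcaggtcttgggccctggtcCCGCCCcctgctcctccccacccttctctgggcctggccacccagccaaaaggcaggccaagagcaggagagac
PLK3, chr1:44800127-44800376, plus strand: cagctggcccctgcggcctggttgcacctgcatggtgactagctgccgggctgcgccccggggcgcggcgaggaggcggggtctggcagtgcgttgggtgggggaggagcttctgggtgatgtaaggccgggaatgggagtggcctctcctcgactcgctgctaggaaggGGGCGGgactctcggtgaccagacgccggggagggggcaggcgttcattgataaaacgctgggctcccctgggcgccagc
PLK2, chr5:58460087-58460336, minus strand: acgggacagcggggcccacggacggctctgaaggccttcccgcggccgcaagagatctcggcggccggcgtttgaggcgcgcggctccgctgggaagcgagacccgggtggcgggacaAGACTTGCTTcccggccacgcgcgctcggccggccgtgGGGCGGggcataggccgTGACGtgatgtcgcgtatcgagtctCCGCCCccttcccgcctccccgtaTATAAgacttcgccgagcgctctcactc
The PLK2 window held a p53 decamer match 132 bases before the start, a match that 5.57% of 35116 human windows of the same length hold. No match to the decamer lay in the other 4 windows available here, those of SFN, PLK3, GADD45B and GADD45G. GC boxes were found in SFN, PLK3 and PLK2 (42.6% of all windows) and in neither GADD45B nor GADD45G. TATAA lay 28 bases before the start in PLK2, 31 in GADD45B and 27 in GADD45G, and was absent from the SFN and PLK3 windows (18.9% of all windows hold it). CCAAT was found in GADD45B, with 2 matches, and in GADD45G, with 1 (32.0% of all windows). TGACG was found in PLK2 alone of the 5 (21.2% of all windows), and the serum response element in none of them (1.16% of all windows). These are matches of letters and were not tested for binding. Sequence further upstream and within the genes was not searched, so a p53 site there would be missed.

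SFN, the cytoplasmic anchor of the CDK1 complex, was raised in every 5 ng array. At 24 h its log2 signals were 11.28, 11.16, 11.20 and 11.57 at 0 ng, 11.67, 11.62, 11.61 and 11.30 at 3 ng, and 12.12, 12.27, 12.25 and 12.09 at 5 ng. At 12 h they were 11.86, 11.97, 11.91 and 11.83 at 5 ng, and 11.41, 11.58, 11.40 and 11.62 at 3 ng. All 8 arrays of the 5 ng groups lay above all 12 others, while the 3 ng groups overlapped the uninduced arrays. Of all genes, 4.94% had the 5 ng arrays above those of 0 ng at 24 h and 3.76% at 12 h. Against 3 ng at 24 h 8.31% did. The share of genes apart in all of these at once was not computed. The rise at 5 ng against 0 ng at 24 h was 0.88 ± 0.13 log2 units (SE, n = 4 in each group, limma adjusted p = 1.7e-05), and at 12 h it was 0.59 ± 0.13 (limma adjusted p = 0.0032). At 3 ng the difference was 0.25 ± 0.13 at 24 h and 0.20 ± 0.13 at 12 h, and neither was called (limma adjusted p = 0.174 and 0.407).

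After quantile normalization SFN averaged 11.09 ± 0.11 at 0 ng, 11.72 ± 0.057 at 3 ng and 12.19 ± 0.052 at 5 ng at 24 h (SD, n = 4). It was then called at 3 ng as well, by 0.63 ± 0.075 (SE) at 24 h and 0.42 ± 0.075 at 12 h (limma adjusted p = 3.3e-06 and 0.00083). The dose difference at 24 h was called on both scales, 0.63 ± 0.13 as deposited (5 ng 12.18 ± 0.091, 3 ng 11.55 ± 0.17, SD, n = 4, limma adjusted p = 0.0058) and 0.47 ± 0.075 after normalization (limma adjusted p = 0.00032).

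Of the other 6 14-3-3 genes measured, 0 rose and 2 fell at 5 ng against 0 ng at 24 h, on both scales. Among all genes 4.52% rose and 28.1% were called as deposited, and 20.6% rose and 37.8% were called after normalization. SFN was the single measured member of its family that rose, though 0 of 6 rising lies near the deposited share of all genes. YWHAH, the 14-3-3 eta gene, fell by 1.12 ± 0.16 as deposited and by 0.76 ± 0.067 after quantile normalization (SE). YWHAE, the 14-3-3 epsilon gene, differed by -0.39 ± 0.14 and -0.19 ± 0.052, the first with a limma adjusted p of 0.0492, a call that ended in 14 of the 20 refits without 1 array. The median of the 6 was -0.30 as deposited and -0.10 after normalization. At 3 ng against 0 ng at 24 h 24.5% of all genes were called and 1.5% rose as deposited, and 15.4% rose after normalization. Of the 6 14-3-3 genes, 4 fell there as deposited and 2 after normalization, and 0 rose on either scale. Without 1 array in turn 1 to 5 fell as deposited and 1 to 2 after normalization, with the lowest deposited count without replicate 4 of 0 ng or of 3 ng at 24 h, and the call of YWHAB, the 14-3-3 beta gene, ended in 12 of the 20 refits. With arrays centred on their medians 1 fell. Some of the keratins among the epithelial markers moved in the same direction as SFN at 5 ng. KRT5 and KRT14 of the basal layer and KRT8 of the luminal layer were higher at 5 ng than at 0 ng at 24 h by 0.66 ± 0.13, 0.56 ± 0.12 and 0.53 ± 0.12 (4 of the 6 epithelial markers rose and EPCAM fell), and their part in the SFN result was not tested.

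GADD45A, the family member under p53 control, was higher at 5 ng than at 0 ng on average but with wide spread among uninduced arrays. At 24 h its log2 signals were 10.67, 10.47, 10.16 and 10.95 at 0 ng, 10.75, 10.69, 10.72 and 10.43 at 3 ng, and 10.86, 11.06, 10.96 and 11.05 at 5 ng. At 12 h they were 10.78, 11.15, 10.99 and 11.03 at 5 ng, and 10.55, 11.04, 10.50 and 10.94 at 3 ng. A single uninduced array, at 10.95, reached into the range of the 5 ng arrays, which lay above those of 3 ng at 24 h (8.31% of all genes were apart this way). As deposited the differences from 0 ng at 24 h were 0.42 ± 0.16 at 5 ng (SE, n = 4 in each group, limma adjusted p = 0.0629) and 0.085 ± 0.16 at 3 ng (limma adjusted p = 0.80). Without replicate 4 of 0 ng, the array at 10.95, the 5 ng difference was 0.55 and was called, as it was at 0.42 without replicate 2 of 3 ng at 12 h.

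After quantile normalization all 16 induced arrays lay above the 4 uninduced ones for GADD45A (19.2% of all genes did at 5 ng and 16.8% at 3 ng at 24 h). It averaged 10.33 ± 0.13 at 0 ng, 10.83 ± 0.058 at 3 ng and 11.04 ± 0.030 at 5 ng at 24 h (SD, n = 4). The rise was 0.71 ± 0.058 at 5 ng and 0.50 ± 0.058 at 3 ng (SE, limma adjusted p = 1.3e-08 and 3.0e-06). The dose difference was 0.21 ± 0.058 at 24 h (limma adjusted p = 0.024), a call that ended without replicate 2 or 4 of 3 ng at 24 h or replicate 2 of 5 ng at 24 h, each with a value of 0.20.

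**Figure D2:**
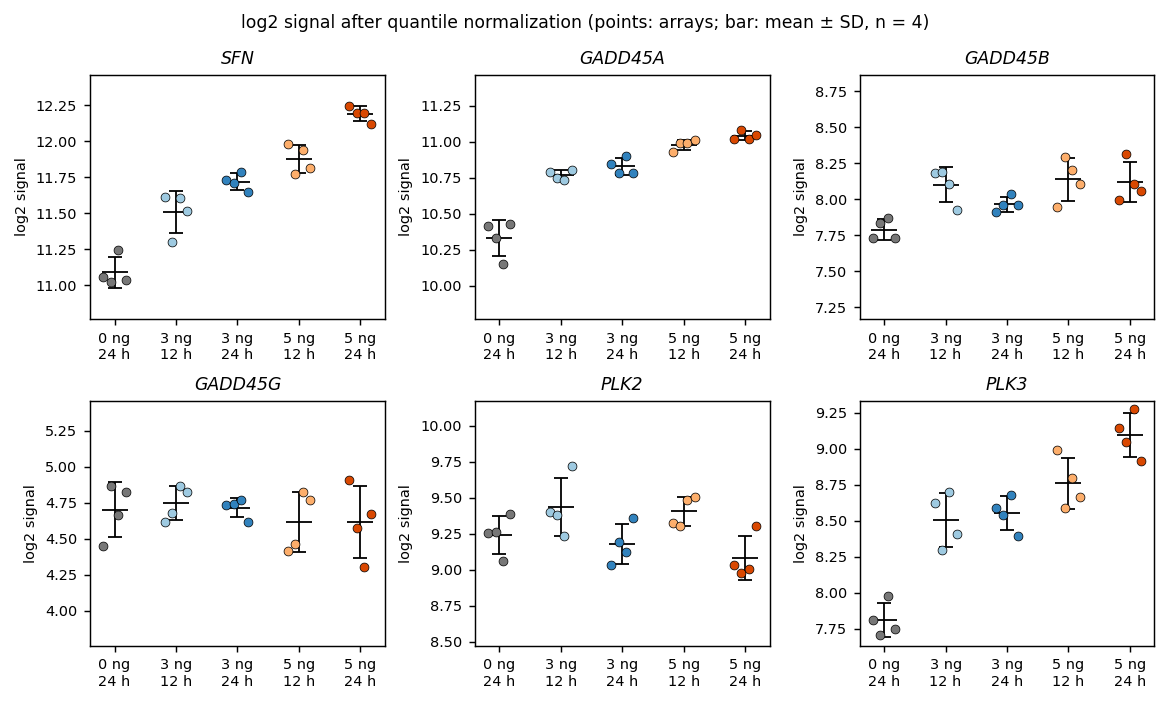
Log2 signal after quantile normalization between arrays (vertical axes, each spanning the same range of log2 units) for the 6 genes in the 5 groups (horizontal axes, dose and time of doxycycline). Points are arrays and bars are mean ± SD of 4 arrays. All 16 induced arrays of GADD45A lie above the 4 uninduced ones, and SFN and PLK3 are highest at 5 ng and 24 h.

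GADD45B changed direction with the scaling. Its log2 signals at 24 h were 8.04, 7.97, 7.92 and 8.27 at 0 ng, 7.78, 7.87, 7.83 and 7.60 at 3 ng, and 7.82, 8.17, 7.93 and 8.06 at 5 ng, so that all 4 arrays of 3 ng lay below the uninduced ones (27.9% of all genes did). At 12 h they were 7.75, 8.39, 8.26 and 8.20 at 5 ng, and 7.98, 8.60, 7.87 and 8.16 at 3 ng, overlapping the uninduced arrays. The differences from 0 ng at 24 h were -0.055 ± 0.17 at 5 ng and -0.28 ± 0.17 at 3 ng as deposited (SE, limma adjusted p = 0.848 and 0.254), but 0.33 ± 0.083 and 0.18 ± 0.083 after quantile normalization (limma adjusted p = 0.0037 and 0.13). After that normalization all 4 arrays of 3 ng at 24 h lay above the uninduced ones (16.8% of all genes did). With each array centred on its median the 5 ng difference was 0.215 and was not called.

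GADD45G did not separate the groups on either scale. Its signal lay at percentile 36.6 of all genes on average over the arrays, which ranks probes and not transcripts. At 24 h its log2 signals were 4.54, 4.84, 4.69 and 5.13 at 0 ng, 4.50, 4.79, 4.70 and 4.41 at 3 ng, and 4.85, 4.10, 4.12 and 4.71 at 5 ng. At 12 h they were 4.12, 4.17, 5.01 and 5.08 at 5 ng, and 4.57, 5.27, 4.68 and 5.26 at 3 ng. The groups overlapped throughout. At 5 ng against 0 ng at 24 h the difference was -0.355 as deposited, with a 95% interval from -0.86 to 0.15, and -0.085 after quantile normalization, with an interval from -0.34 to 0.17 (limma adjusted p = 0.315 and 0.64).

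Set against GADD45B on the same array, GADD45A was higher in both induced groups at 24 h, without passing adjustment. A shift of a whole array does not move such a within-array difference, and this comparison was added after the values were seen. GADD45A minus GADD45B was 2.51 ± 0.20 at 0 ng, 2.88 ± 0.069 at 3 ng and 2.99 ± 0.068 at 5 ng (SD, n = 4, all at 24 h). Both induced groups of 24 h lay wholly above the uninduced one. How often other pairs of genes separate in this way, at either time, was not tested. Each comparison with 0 ng had an exact two-sided permutation p of 0.0286, the smallest that 4 against 4 arrays can give, or 0.0686 after Benjamini-Hochberg adjustment over the 12 such tests run, the smallest any of them reached. The difference of 0.11 between the doses had an exact permutation p of 0.0857 (0.147 adjusted). At 12 h the values were 2.57, 2.44, 2.63 and 2.78 at 3 ng, which overlapped the uninduced arrays. At 5 ng and 12 h they were 3.03, 2.76, 2.73 and 2.83, above the uninduced arrays. The 12 h groups were not tested.

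PLK3, a kinase of the stress checkpoint, had the largest rise of the 6 genes at 5 ng. At 24 h its log2 signals were 8.12, 7.84, 8.03 and 8.29 at 0 ng, 8.47, 8.43, 8.47 and 8.02 at 3 ng, and 8.97, 8.94, 9.13 and 8.92 at 5 ng. At 12 h they were 8.81, 8.69, 8.83 and 8.73 at 5 ng, and 8.41, 8.70, 8.46 and 8.62 at 3 ng. Both 12 h groups and the 5 ng group at 24 h lay above every uninduced array (2.24% of all genes did at 3 ng and 12 h, 3.76% at 5 ng and 12 h and 4.94% at 5 ng and 24 h), and at 3 ng and 24 h replicate 4 fell inside the uninduced range. As deposited PLK3 rose by 0.92 ± 0.13 at 5 ng and 24 h (SE, n = 4 in each group, limma adjusted p = 2.1e-05) and by 0.695 ± 0.13 at 5 ng and 12 h (limma adjusted p = 0.0014). The differences at 3 ng were 0.28 ± 0.13 at 24 h and 0.48 ± 0.13 at 12 h (limma adjusted p = 0.148 and 0.0585).

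After quantile normalization PLK3 averaged 7.81 ± 0.12 at 0 ng, 8.55 ± 0.12 at 3 ng and 9.09 ± 0.15 at 5 ng at 24 h (SD, n = 4). It was then called at both doses and both times, by 1.28 ± 0.11 at 5 ng and 24 h, 0.95 ± 0.11 at 5 ng and 12 h, 0.74 ± 0.11 at 3 ng and 24 h and 0.70 ± 0.11 at 3 ng and 12 h (SE). The dose difference at 24 h was called on both scales, 0.64 ± 0.13 as deposited and 0.54 ± 0.11 after normalization (limma adjusted p = 0.0083 and 0.0023).

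PLK2, the relative of PLK3 with the decamer match shown above, averaged lower in both 24 h induced groups than at 0 ng as deposited, short of the threshold. At 24 h its log2 signals were 9.55, 9.41, 9.08 and 9.94 at 0 ng, 8.92, 9.09, 8.93 and 9.0 at 3 ng, and 8.87, 8.87, 8.87 and 9.31 at 5 ng. At 12 h they were 9.14, 9.43, 9.52 and 9.57 at 5 ng, and 9.18, 9.75, 8.99 and 9.89 at 3 ng. Both 24 h groups overlapped the uninduced arrays at the lowest of these, 9.08. The difference at 5 ng was -0.515 ± 0.20 (SE, 95% interval from -0.93 to -0.10, limma adjusted p = 0.0588) and at 3 ng -0.51 ± 0.20 (limma adjusted p = 0.0669). After quantile normalization these were -0.16 ± 0.10 and -0.063 ± 0.10 (limma adjusted p = 0.256 and 0.706), so the size of the difference depended on the scaling. Without replicate 3 of 0 ng, the array at 9.08, or without replicate 4 of 5 ng, the array at 9.31, the deposited difference at 5 ng was called, at -0.65 and -0.625, as it was at -0.515 without replicate 2, 3 or 4 of 3 ng at 12 h. The 3 ng difference was also called when replicate 3 of 0 ng was left out (-0.65) or when replicate 3 of the 3 ng, 12 h group was (-0.51).

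On the same array, PLK3 minus PLK2 was -1.425 ± 0.27 at 0 ng, -0.64 ± 0.25 at 3 ng and 0.01 ± 0.28 at 5 ng (SD, n = 4, all at 24 h). The 3 groups did not overlap, and each step and the whole span had an exact two-sided permutation p of 0.0286 (0.0686 adjusted over the 12 tests). The within-array difference was 1.435 log2 units higher at 5 ng than at 0 ng and 0.79 higher at 3 ng. This comparison too was added after the values were seen. It sets the member with the largest rise against one that averaged lower, and how often other pairs separate was not tested. At 12 h the differences were -0.77, -1.05, -0.53 and -1.27 at 3 ng, reaching the uninduced range. At 5 ng and 12 h they were -0.33, -0.74, -0.69 and -0.84, above that range. Of the 3 other polo-like kinases 2 fell and 0 rose on both scales (28.1% of all genes were called as deposited and 37.8% after normalization). PLK1 fell by 4.23 ± 0.21 and PLK4 fell by 4.795 ± 0.26 at 5 ng against 0 ng at 24 h as deposited (SE), and by 3.83 and 4.34 after quantile normalization. PLK5, the remaining family member, was not called (-0.19 ± 0.19 as deposited and 0.17 ± 0.15 after normalization).

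**Figure D3:**
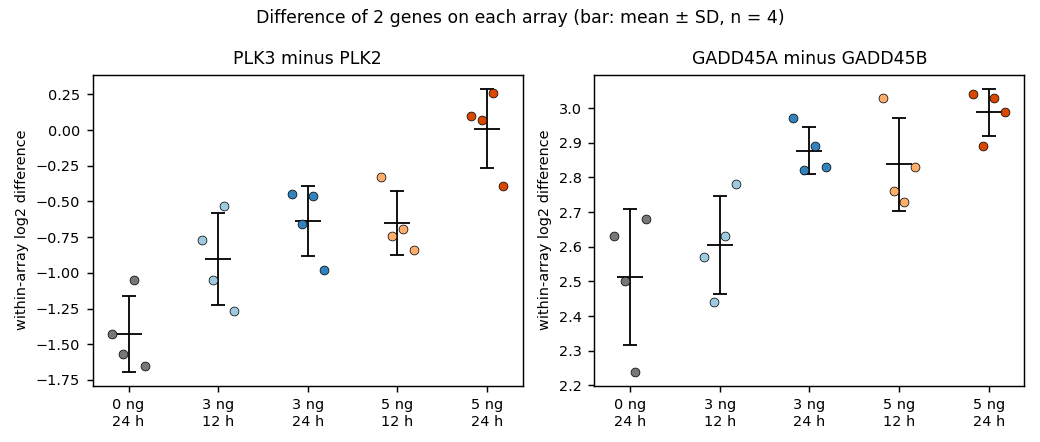
Within-array log2 difference (vertical axes) of PLK3 minus PLK2 and of GADD45A minus GADD45B in the 5 groups (horizontal axes). Points are arrays and bars are mean ± SD of 4 arrays. At 24 h PLK3 minus PLK2 is -1.425 on average at 0 ng, -0.64 at 3 ng and 0.01 at 5 ng, and these 3 groups do not overlap. The arrays of 3 ng at 12 h reach the uninduced range in both panels.

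**Figure D4:**
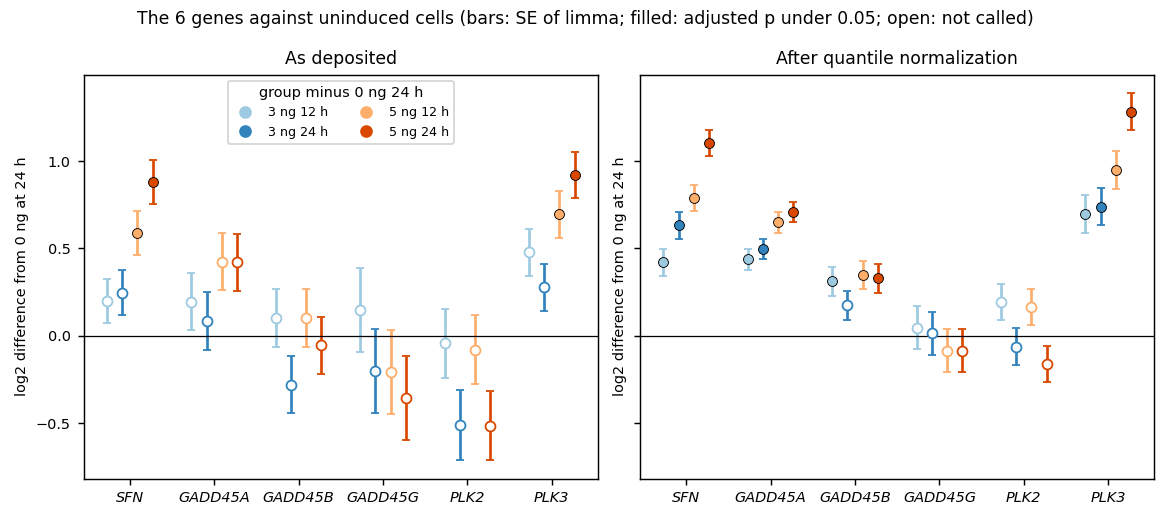
Log2 difference of each induced group from 0 ng at 24 h (vertical axes) for the 6 genes (horizontal axes), as deposited and after quantile normalization. Bars are the SE of the limma fit, filled points were called and open points were not. SFN and PLK3 at 5 ng are filled on both sides, and GADD45A and GADD45B on the quantile-normalized side only.

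SFN and PLK3 were already higher at 12 h in the 5 ng cells. Against 0 ng at 24 h, the only uninduced cells, 5 ng called SFN and PLK3 as deposited (2 of 6 rose, where 3.44% of all genes rose) and SFN, GADD45A, GADD45B and PLK3 after quantile normalization (4 of 6, where 11.5% rose). GADD45A and GADD45B were then 0.65 ± 0.058 and 0.35 ± 0.083 higher (SE). At 3 ng none of the 6 was called as deposited, where PLK3 alone had an unadjusted limma p under 0.05 (0.00187) and its arrays lay above the uninduced ones (2.24% of all genes did), and 1.57% of all genes rose. After normalization the same 4 genes were called at 3 ng (6.61% of all genes rose), GADD45A by 0.44 and GADD45B by 0.31. The GADD45B call at 3 ng and 12 h ended without replicate 1 of that group (0.28) or replicate 4 of 0 ng (0.29). Time of collection and induction cannot be told apart in these comparisons.

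SFN and PLK3 separated the doses at 24 h. As deposited 2 of the 6 genes, SFN and PLK3, were higher at 5 ng than at 3 ng (1.79% of all genes rose), and after quantile normalization GADD45A as well (5.96% rose). At 12 h none was called as deposited, where 4 of 18417 genes rose (0.0217%), and SFN had an unadjusted limma p of 0.00563. SFN was the single call at 12 h after normalization, by 0.37 ± 0.075 (limma adjusted p = 0.011, 2.32% of all genes rose), which ended without replicate 1 of 5 ng at 12 h (limma adjusted p = 0.0504). The interaction of dose and time was not called for any of the 6 genes on either scale. Over all genes the limma fit called 0 interactions as deposited (0%) and 13 after normalization (0.0706%), and PLK3 had an unadjusted p of 0.0359 as deposited.

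From 12 h to 24 h none of the 6 genes was called at either dose as deposited, where 4.43% of all genes were called at 3 ng and 3.97% at 5 ng. Unadjusted limma p-values under 0.05 were those of GADD45B (0.0309) and PLK2 (0.0286) at 3 ng and of SFN (0.0321) and PLK2 (0.0401) at 5 ng. After quantile normalization none was called at 3 ng (16.0% of all genes were) and 3 were called at 5 ng (18.4%). SFN rose by 0.31 ± 0.075 and PLK3 by 0.34 ± 0.11, and PLK2 fell by 0.33 ± 0.10 (SE, limma adjusted p = 0.0063, 0.0365 and 0.0378). The PLK2 call ended without replicate 3 or 4 of 5 ng at 12 h or replicate 1, 2 or 3 of 5 ng at 24 h. The PLK3 call ended without any of these or replicate 2 of 5 ng at 12 h.

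The order of the group means was the same for SFN on both scales, with 0 ng lowest, then 3 ng at 12 h, 3 ng at 24 h, 5 ng at 12 h and 5 ng at 24 h. As deposited the arrays of neighbours overlapped up to 3 ng at 24 h and were apart above it, and after quantile normalization only 3 ng at 24 h and 5 ng at 12 h overlapped. GADD45A and PLK3 had this order too after normalization. In GADD45A only the 2 groups of 3 ng overlapped, and in PLK3 only the uninduced arrays stood apart from their neighbour. The pattern of SFN over the 20 quantile-normalized arrays had a Pearson r of 0.97 with PLK3, 0.89 with GADD45A and 0.61 with GADD45B. It was -0.30 with PLK2 and -0.21 with GADD45G. As deposited the values were 0.94 with PLK3, 0.78 with GADD45A, 0.20 with GADD45B, -0.22 with PLK2 and -0.31 with GADD45G. These correlations describe arrays that share their groups and their scaling.

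Genes most like each member were taken as the 3 with the highest Pearson r over the 20 quantile-normalized arrays. For SFN these were MLF2 (0.988), GGT6 (0.988) and STING1 (0.986), for PLK3 CEP170B (0.983), TSPAN14 (0.983) and NIPAL4 (0.979), and for GADD45A TM7SF3 (0.9875), HSDL2 (0.986) and BBS4 (0.981). The values were lower for the others. GADD45B was most like DDB2 (0.834), a DNA damage recognition gene, with INKA2 (0.832) and MRPL39 (0.832) next. PLK2 was most like CTCFL (0.836), PAWR (0.826) and DCP2 (0.820), and GADD45G like HRC (0.771), PCYOX1L (0.739) and FREM1 (0.712). On the deposited values MLF2 stayed first for SFN (0.984), and the first gene differed for the other 5.

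All 14 genes of the CDK1 activation list fell at 5 ng against 0 ng at 24 h on both scales. Their median was -2.98 as deposited. The list holds activators of CDK1 and also WEE1 and PKMYT1, kinases that inhibit it. In either direction 28.1% of all genes were called as deposited and 37.8% after normalization, with 4.52% and 20.6% rising. CDK1, the kinase held by 14-3-3 sigma and bound by GADD45 proteins, fell by 3.88 ± 0.24 as deposited, its cyclin CCNB1 by 3.63 ± 0.20, CCNB2 by 3.76 and AURKA, the kinase that activates PLK1, by 3.58 (SE). Of 14 checkpoint kinases and sensors 12 fell and 0 rose, on both scales. CLSPN, the adaptor that activates CHEK1, fell by 4.24 ± 0.27 as deposited, CHEK1 itself by 2.81 ± 0.21 and TOPBP1, an activator of ATR, by 2.55.

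Of 11 p38 and JNK kinases, which act downstream of the GADD45 proteins, 2 rose and 5 fell as deposited and 4 rose and 2 fell after quantile normalization, at shares of all genes given above (28.1% and 37.8% called). Without 1 array in turn 1 to 2 rose and 2 to 5 fell as deposited, the fewest falling without replicate 4 of 0 ng at 24 h, and 4 to 5 rose and 1 to 3 fell after normalization. MAPK13, the p38 delta kinase, rose by 1.34 ± 0.13 as deposited and by 1.69 after normalization. MAP3K4, the kinase that GADD45 proteins bind, fell by 0.60 ± 0.16 as deposited and by 0.20 ± 0.073 after normalization, and was among the fallen on both scales. Of 6 GADD45 protein partners 2 rose and 2 fell (3 and 2 after normalization), with the sliding clamp PCNA at -0.77 ± 0.17 and the repair gene XPC at 0.58 ± 0.16 as deposited (SE).

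Among 11 other p53 targets linked to arrest, 5 rose and 1 fell at 5 ng against 0 ng at 24 h as deposited, and 9 rose and 1 fell after quantile normalization. The shares of all genes were 4.52% rising and 28.1% called as deposited, and 20.6% and 37.8% after normalization. CDKN1A, which encodes p21, a brake on cyclin-dependent kinases, rose by 1.435 ± 0.14 as deposited, and GTSE1, a G2 and S phase gene, fell by 2.65. Of 19 stress transcription factors 3 rose and 6 fell as deposited and 7 rose and 5 fell after normalization, beside those shares of all genes. EGR1, an immediate early factor, rose by 0.80 ± 0.13 at 5 ng and 24 h and ATF3, a stress factor, by 0.875 ± 0.25. BRCA1, a repair gene also described as an activator of GADD45A, fell by 3.48 ± 0.21.

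**Figure D5:**
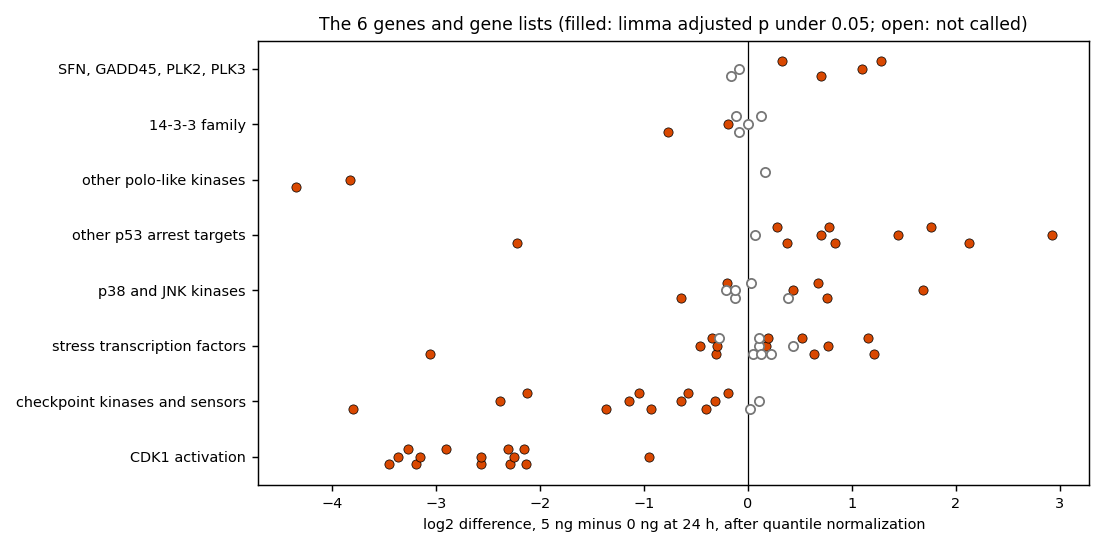
Log2 difference of 5 ng minus 0 ng at 24 h after quantile normalization (horizontal axis) for the 6 genes and for 7 lists of genes (rows). Each point is a gene, filled where limma's adjusted p was under 0.05 and open where it was not. All 14 genes of the CDK1 activation list, which includes the inhibitors WEE1 and PKMYT1, lie below 0. Of the 6 G2 checkpoint genes 4 lie filled above it.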

How the data were processed

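RNA of 20 samples of B5/589 cells was hybridised to Affymetrix arrays, 4 in each of 5 groups. Per the submitters' processing notes the tools were GCOS, GCRMA, Affymetrix Power Tools and limma. The scaling of the arrays is a step not given in the sources used. The deposited values were log2 signals per transcript cluster, made by the authors and used as deposited. Of 33297 clusters, 19460 had 1 symbol, 1754 had several and 12083 had none listed, and the brightest cluster of each of 18417 genes was kept. No 2 arrays shared over 1.86% of their values.

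limma 3.58.1 in R 4.3.3 fitted 1 mean per group over all 20 arrays, with 15 residual degrees of freedom and Benjamini-Hochberg adjustment over all genes (threshold 0.05). The same fit was run after quantile normalization and after centring. Array weights, trend and robust options, a filter on dim genes, only the groups compared, a replicate block and leaving out each array were alternatives. Within-array differences, refits and blocks on the normalized values were added after the data were seen. On simulated data with 18417 genes, 67 of 100 genes changed by 1 log2 unit and 99 of 100 changed by 2 were recovered. The simulated noise was independent between genes, with no shift of whole arrays and no other gene changed. Recovery in the real arrays can therefore differ.

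The 6 genes are always named, with up to 4 called genes of each list by size of change, CDKN1A, and the 3 most correlated genes. Members and lists were chosen with earlier results of these data known. Promoters come from RefSeq, for 5 of the 6 genes and not GADD45A. The p53 transgene is not analysed here.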

Additional observations from a re-analysis of the deposited data

Results flagged for a closer look

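Of 60 groups of 4 arrays examined (6 genes in 5 groups on each of 2 scales), 4 held an array far from the others by Dixon's criterion, which chance meets in about 1 group in 20. Replicate 4 of 3 ng at 24 h stood below its group in the deposited values of SFN, at 11.30 with the next array at 11.61, and of PLK3, at 8.02 with the next at 8.43. Replicate 4 of 5 ng at 24 h stood above its group in the deposited values of PLK2, at 9.31 with the next at 8.87. After quantile normalization replicate 3 of 0 ng at 24 h stood above its group in SFN, at 11.2455 with the next at 11.05. The cause of these gaps was not tested.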

How the results depend on the processing

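The 6 differences called as deposited (SFN and PLK3 in the 5 ng groups against uninduced cells, and between doses at the later time) kept their call and direction in 168 of 168 refits over 28 settings. Of these settings 20 each left out 1 array. Leaving out an array outside the 2 groups compared cannot move the difference itself, only its error. Values of the other members moved with the scaling between arrays, and the cause was not tested. The dimmest 30% of genes held none of the 6. Array weights were estimated by an iteration that stopped before it converged. Same-numbered replicates of different groups had correlated deviations of -0.18 to 0.50, 13 of 40 over 0.1, with a median of 0.0585 against -0.024 for other numbers. Not every pair was over 0.1, the criterion used, so the numbers were not taken to pair the samples, and that 10 of 20 arrays correlated best with their own number is a hint from the data, not the design. The replicate block called 1 of the 6 genes at 3 ng against 0 ng at 24 h, and after quantile normalization 2 between the times at 3 ng and 2 between the doses at 12 h. With quantile normalization, the number of the 6 genes called was 3 for 3 ng against 0 ng at 24 h, 4 for 5 ng against 0 ng at 24 h, 1 for 5 ng against 3 ng at 12 h, 4 for 3 ng at 12 h against 0 ng at 24 h, 4 for 5 ng at 12 h against 0 ng at 24 h and 3 for 24 h against 12 h at 5 ng. Differences that turned sign there were GADD45B at 0.18 for 3 ng against 0 ng at 24 h, GADD45G at 0.015 for 3 ng against 0 ng at 24 h, GADD45B at 0.33 for 5 ng against 0 ng at 24 h, GADD45B at 0.037 for 5 ng against 3 ng at 12 h, PLK2 at 0.19 for 3 ng at 12 h against 0 ng at 24 h, PLK2 at 0.16 for 5 ng at 12 h against 0 ng at 24 h, GADD45A at 0.060 for 24 h against 12 h at 3 ng, PLK3 at 0.043 for 24 h against 12 h at 3 ng and GADD45A at 0.061 for 24 h against 12 h at 5 ng. With arrays centred on their medians, the number of the 6 genes called was 2 for 3 ng against 0 ng at 24 h, and 3 for 5 ng against 0 ng at 24 h and for 5 ng at 12 h against 0 ng at 24 h, GADD45A being called in both of these beside SFN and PLK3. Differences that turned sign there were GADD45G at 0.025 for 3 ng against 0 ng at 24 h, GADD45B at 0.215 for 5 ng against 0 ng at 24 h, PLK2 at 0.04 for 5 ng against 3 ng at 24 h, GADD45B at 0.19 for 5 ng against 3 ng at 12 h, PLK2 at 0.155 for 5 ng against 3 ng at 12 h, PLK2 at 0.033 for 5 ng at 12 h against 0 ng at 24 h, GADD45A at 0.195 for 24 h against 12 h at 3 ng, PLK3 at 0.105 for 24 h against 12 h at 3 ng, GADD45A at 0.15 for 24 h against 12 h at 5 ng, GADD45B at 0.0025 for 24 h against 12 h at 5 ng and GADD45G at 0.0075 for 24 h against 12 h at 5 ng. With array weights, the number of the 6 genes called was 3 for 3 ng against 0 ng at 24 h, 4 for 5 ng against 0 ng at 24 h, 6 for 5 ng against 3 ng at 12 h, 1 for 3 ng at 12 h against 0 ng at 24 h, 4 for 5 ng at 12 h against 0 ng at 24 h and 4 for 24 h against 12 h at 5 ng. Differences that turned sign there were GADD45B at 0.27 for 5 ng against 3 ng at 12 h, GADD45G at 0.38 for 5 ng against 3 ng at 12 h, PLK2 at 0.33 for 5 ng against 3 ng at 12 h, GADD45B at -0.024 for 3 ng at 12 h against 0 ng at 24 h, GADD45G at -0.13 for 3 ng at 12 h against 0 ng at 24 h, GADD45G at 0.24 for 5 ng at 12 h against 0 ng at 24 h, PLK2 at 0.084 for 5 ng at 12 h against 0 ng at 24 h, GADD45A at 0.13 for 24 h against 12 h at 3 ng and GADD45G at 0.051 for 24 h against 12 h at 3 ng. With only the groups compared, the number of the 6 genes called was 1 for 3 ng against 0 ng at 24 h. Without the dimmest 30% of genes, the number of the 6 genes called was 1 for 3 ng against 0 ng at 24 h, 4 for 5 ng against 0 ng at 24 h and 1 for 3 ng at 12 h against 0 ng at 24 h. With limma's trend and robust options, the number of the 6 genes called was 1 for 3 ng against 0 ng at 24 h, 4 for 5 ng against 0 ng at 24 h and 1 for 3 ng at 12 h against 0 ng at 24 h. Without 1 array in turn, as deposited, the number called ranged over 0 to 1 for 3 ng at 12 h against 0 ng at 24 h, 0 to 1 for 3 ng against 0 ng at 24 h and 2 to 4 for 5 ng against 0 ng at 24 h. Without 1 array in turn, as deposited, differences crossed 0 over -0.074 to 0.049 in GADD45A for 24 h against 12 h at 5 ng, -0.049 to 0.21 in GADD45A for 3 ng against 0 ng at 24 h, -0.047 to 0.20 in GADD45B for 3 ng at 12 h against 0 ng at 24 h, -0.11 to 0.018 in GADD45B for 5 ng against 0 ng at 24 h, -0.097 to 0.15 in GADD45B for 5 ng against 3 ng at 12 h, -0.31 to 0.012 in GADD45G for 24 h against 12 h at 5 ng, -0.19 to 0.11 in PLK2 for 3 ng at 12 h against 0 ng at 24 h, -0.22 to 0.068 in PLK2 for 5 ng at 12 h against 0 ng at 24 h, -0.19 to 0.11 in PLK2 for 5 ng against 3 ng at 12 h and -0.115 to 0.032 in PLK2 for 5 ng against 3 ng at 24 h. Without 1 array in turn, after quantile normalization, the number called ranged over 0 to 1 for 24 h against 12 h at 3 ng, 1 to 3 for 24 h against 12 h at 5 ng and 0 to 2 for 5 ng against 3 ng at 12 h. Without 1 array in turn, after quantile normalization, differences crossed 0 over -0.084 to 0.032 in GADD45B for 24 h against 12 h at 5 ng, -0.021 to 0.10 in GADD45B for 5 ng against 3 ng at 12 h, -0.073 to 0.011 in GADD45G for 24 h against 12 h at 3 ng, -0.099 to 0.10 in GADD45G for 24 h against 12 h at 5 ng, -0.039 to 0.10 in GADD45G for 3 ng at 12 h against 0 ng at 24 h, -0.069 to 0.071 in GADD45G for 3 ng against 0 ng at 24 h, -0.18 to 0.017 in GADD45G for 5 ng against 0 ng at 24 h, -0.20 to 0.0021 in GADD45G for 5 ng against 3 ng at 24 h, -0.096 to 0.065 in PLK2 for 5 ng against 3 ng at 12 h and -0.028 to 0.11 in PLK3 for 24 h against 12 h at 3 ng. Taking the mean of a gene's clusters changed no value, since each of the 6 has 1 cluster. The 4 arrays in a group limit the precision.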
